A study of Mus musculus with 24 samples.

Results

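Cxxc5, Fam167a, Mycn, Samd5 and Zfp503 fell furthest in transcript level in wild type quadriceps femoris muscle 4 h after a heat shock (HS). They were chosen by log2 fold change among genes called lower there with a mean of at least 1 CPM (counts scaled to a library of 1e6). A further condition was that both HS mice lay below both control mice. The members are 5 of the 13754 genes that passed the filter on low counts, and of the 18669 genes in the count table. All 5 passed that filter. Because the wild type control and HS libraries chose the members, their values there are given as a description with no test, and the questions asked here are whether the same genes were lower after HS in the other genotypes, one of which lacks functional Hsf1, and whether they responded to HSP990.

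RNA-seq counts came from the quadriceps femoris of 24 mice on a CBA x C57BL/6 F1 background, in 12 groups of 2 mice, and every muscle was taken 4 h after treatment. The genotypes were wild type, R6/2, which carries exon 1 of a mutant human huntingtin gene as a transgene and is a model of Huntington's disease, and Hsf1-/-, which is homozygous for a knockout of Hsf1. All mice of the HS experiment were under isoflurane, and HS mice were kept at 41.5 °C (core) for 15 min and control mice at 36.9 °C for 21 min. HSP990, a small-molecule inhibitor of HSP90, was given orally at 12 mg/kg in 0.9% saline that held 0.2% methyl cellulose, and the vehicle mice are labelled as having received 0.9% saline. The wild type and R6/2 mice were 12 weeks old, whereas the Hsf1-/- mice were 10 weeks old in the HS experiment and 8 weeks old in the HSP990 experiment.

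In stressed cells HSF1 trimerises, binds heat shock elements and switches on chaperone genes, and HSP90 inhibitors release HSF1 without any rise in temperature. Heat also lowers the transcription of many genes, and in cultured cells much of that lowering takes place without HSF1. Of the 5 members, Mycn encodes N-Myc, a MAX-dependent transcription factor of growth and biosynthesis genes that is best known from embryonic tissues and neuroblastoma. Cxxc5 encodes a zinc finger protein that binds unmethylated CpG sites and restrains Wnt signalling by binding Dishevelled, and its own transcription responds to BMP signals. Zfp503 encodes a transcriptional repressor known from the developing striatum and limb, Samd5 a protein with a sterile alpha motif (SAM), a module through which proteins bind one another, and Fam167a a small protein whose function is poorly understood.

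The libraries held 22450177 to 46599238 counts. Hsf1 itself was still counted in Hsf1-/- muscle, at 21.08 to 28.96 CPM against 45.27 to 68.55 CPM in the other genotypes. The inducible chaperone gene Hspa1a served as a check of the treatments, at 960.9 to 1063 CPM after HS and 3.373 to 11.08 CPM in control wild type mice, and at 119.3 to 157.8 CPM after HS in R6/2 mice, and at 1.907 to 2.996 CPM after HS in Hsf1-/- mice. After HSP990 it reached 2776 to 2950 CPM in wild type, 573.3 to 724.7 CPM in R6/2 and 4.926 to 9.152 CPM in Hsf1-/- mice. The summed counts of the Y-linked genes Ddx3y, Eif2s3y, Kdm5d and Uty were 0 to 4 in the wild type and R6/2 libraries of the HS experiment and 3916 to 9392 in all the others, so genotype and experiment cannot be told apart from sex, or from age, when Hsf1-/- mice are set against the other genotypes after HS or when HS is set against HSP990. Hsf1-/- mice of the HSP990 experiment, at 8 weeks, were also younger than its wild type mice, at 12 weeks, so genotype and age cannot be told apart there either. Within each treatment contrast both groups shared age, genotype and Y-linked expression.

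The sequences before the transcription starts of Mycn, Samd5 and Zfp503 are shown, 5′ to 3′ on the strand of the gene. They come from RefSeq on GRCm38.p6, whose table held 3 of the 5 members, and Cxxc5 and Fam167a are named only. Capitals mark GGGCGG, the GC box bound by Sp1-type factors, and TTTGGCGC, an E2F-type site.
Mycn, chr12:12941915-12942086, minus strand: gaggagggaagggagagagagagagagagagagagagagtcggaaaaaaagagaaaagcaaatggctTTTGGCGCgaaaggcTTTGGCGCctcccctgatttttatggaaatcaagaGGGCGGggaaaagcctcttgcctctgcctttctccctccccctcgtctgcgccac
Samd5, chr10:9675209-9675458, minus strand: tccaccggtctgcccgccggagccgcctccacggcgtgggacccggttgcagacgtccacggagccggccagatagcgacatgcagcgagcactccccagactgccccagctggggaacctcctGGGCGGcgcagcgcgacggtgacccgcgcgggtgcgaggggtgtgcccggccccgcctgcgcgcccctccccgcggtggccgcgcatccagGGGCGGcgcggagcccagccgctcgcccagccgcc
Zfp503, chr14:21989602-21989851, minus strand: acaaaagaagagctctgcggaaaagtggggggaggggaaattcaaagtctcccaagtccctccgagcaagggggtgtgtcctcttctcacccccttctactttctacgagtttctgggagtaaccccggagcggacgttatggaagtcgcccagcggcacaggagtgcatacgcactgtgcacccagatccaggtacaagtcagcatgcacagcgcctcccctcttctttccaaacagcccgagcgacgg

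The search covered the 250 bases before each RefSeq start on both strands, and the Mycn line stops where an mm9 transcript of the gene begins. Neither GAANNTTC nor TTCNNGAA, the paired inverted repeats of a heat shock element, occurred in any of the 3 windows, and they occurred in 6.69% and 7.17% of 32851 windows of the same length. The E-box CACGTG, to which MYC and MAX bind, occurred in none of the 3 and in 6.02% of all windows, CCAAT in none of the 3 and in 33.8%, and TATAAA in none of the 3 and in 12.4%. GGGCGG occurred in Samd5 at 126 and 35 bases before the start and in Mycn at 133 and, on the other strand and beyond the printed part, 63 bases before the start, and in 32.7% of all windows. TTTGGCGC, chosen after the Mycn sequence was seen, occurred in Mycn at 183 and 168 bases before the start and in 0.417% of all windows. The Samd5 window had 78.4% GC and 35 CpG sites, against medians of 52.4% and 6 over all windows, while Mycn had 54.8% and 11 and Zfp503 had 57.2% and 13. A match or its absence describes these letters in these windows, and says nothing of binding.

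The members lie on 4 chromosomes and are not copies of one another. In mm9, Cxxc5 (gene ID 67393) spans chr18:35989472-36021341 on the plus strand with 3 exons, and Fam167a (219148) spans chr14:64055231-64084335 on the plus strand with 4 exons. Mycn (18109) spans chr12:12942902-12948720 on the minus strand with 3 exons, Samd5 (320825) spans chr10:9347057-9395006 on the minus strand with 2 exons, and Zfp503 (218820) spans chr14:22803184-22808823 on the minus strand with 3 exons. No member had a near-identical copy elsewhere in the genome, meaning at least 50% of its transcript at a divergence of at most 0.02. Mycn had 3 other alignments, the longest over 25.7% of its transcript. Whether shorter stretches share reads was not tested. The 3' UTR took up 67.5% of the Fam167a transcript and 69.3% of the Samd5 transcript. The letters ATTTA, the core of AU-rich elements that shorten mRNA life, occurred 5 times in the 3' UTRs of Samd5 and of Zfp503 and 1 time in each of the others, and 60.8% of 19915 mouse 3' UTRs held at least 1.

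In wild type mice, the contrast that chose the members, Zfp503 stood at 136 and 135 CPM in the control mice and at 39.7 and 28 CPM after HS, which left 24.9% of the control mean. Cxxc5 stood at 49.2 and 52 CPM in control mice and at 10.6 and 15.3 CPM after HS, which left 25.5%. Mycn stood at 1.84 and 3.69 CPM in control mice and at 0.336 and 0.291 CPM after HS, and Samd5 at 2.16 and 2.61 CPM and at 0.373 and 0.416 CPM, which left 11.3% and 16.5%. Fam167a showed the largest fall, from 1.75 and 2.02 CPM to 0.261 and 0.0832 CPM, but this rested on 39 and 54 counts in control mice and 7 and 2 counts after HS. The fitted log2 fold changes were -3.40 for Fam167a, -3.13 for Mycn, -2.59 for Samd5, -2.003 for Zfp503 and -1.97 for Cxxc5, where 0.465% of all genes tested were called lower. Sertad4 lay just outside the list, at -1.94 with a mean of 5.09 CPM, and Tub, at -3.14, was left out because its mean of 0.777 CPM was under the minimum. In bulk muscle, fewer cells of a type and less RNA per cell cannot be told apart.

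**Figure D1:**
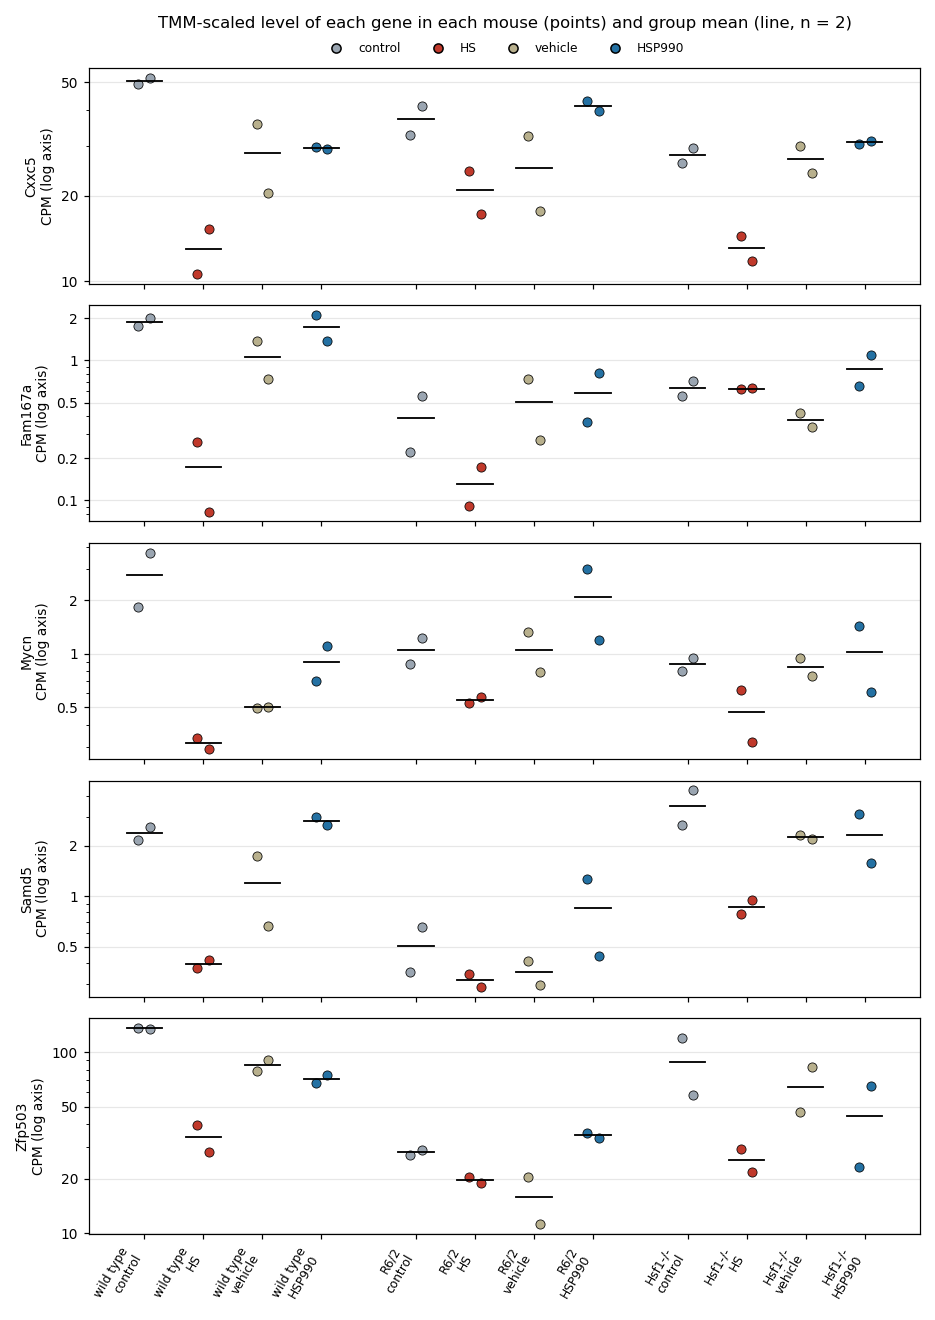
Level of each member in every mouse, as CPM scaled by TMM (trimmed mean of M values) on a log axis, for the 12 genotype-by-treatment groups, where each point is 1 mouse and each bar the mean of the 2 mice. Wild type HS mice sit far below wild type control mice for all 5 genes, as the choice of members requires, and in Hsf1-/- mice the HS points sit below the control points for Cxxc5, Mycn, Samd5 and Zfp503 but not for Fam167a.

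In Hsf1-/- mice, 4 of the 5 members had both HS mice below both control mice, and Hspa1a stayed at control levels. Zfp503 stood at 119 and 58.1 CPM in control and at 29.1 and 21.9 CPM in HS mice (log2 fold change -1.79, SE 0.403). Samd5 stood at 2.67 and 4.3 CPM in control and at 0.778 and 0.954 CPM in HS mice (-2.001, SE 0.512). The HS mice were below the control mice for both genes, and the 2 control mice differed widely for Zfp503, whose value without control mouse 1 was -1.19.

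Cxxc5 stood at 26.1 and 29.5 CPM in control and at 14.4 and 11.8 CPM in HS Hsf1-/- mice (-1.09, SE 0.279, 95% interval -1.68 to -0.49). Mycn stood at 0.796 and 0.945 CPM in control and at 0.622 and 0.318 CPM in HS mice (-0.88, SE 0.575). Fam167a, the member with the largest fall in wild type mice, was at 0.557 and 0.709 CPM in control and at 0.622 and 0.636 CPM in HS Hsf1-/- mice, so its groups overlapped. Its log2 fold change there was -0.0048 with a 95% interval of -1.339 to 1.329 from 14 and 15 counts against 16 and 16, so a fall as large as that of Cxxc5 was not detectable at this depth.

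None of the 5 passed the threshold of 0.05 in Hsf1-/- mice by the quasi-likelihood test of edgeR, Benjamini-Hochberg adjusted over all 13754 genes, where 0.00727% of all genes were called in either direction. Adjusted p was 0.11 for Zfp503, 0.17 for Samd5 and Cxxc5, 0.76 for Mycn and 1 for Fam167a, and 3 members had an unadjusted p under 0.05, as did 1211 of all genes. DESeq2 on the same libraries called 3 members, with an adjusted p of 0.0015 for Zfp503, 0.021 for Cxxc5 and 0.029 for Samd5. It called 161 of the 13754 genes there. Of all genes, 21.6% had both HS mice below both control mice, and the median log2 fold change was -1.09 over the members and 0.00252 over all genes. In the order of all genes by log2 fold change, 1.37% lay below Samd5, 1.69% below Zfp503, 3.73% below Cxxc5 and 5.14% below Mycn, but 48.6% below Fam167a.

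The p-values rest on a spread estimated over all 12 groups with 12 residual degrees of freedom and measure the spread between mice, and an exact test of 2 mice against 2 cannot go below 0.333.

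In R6/2 mice, all 5 members had both HS mice below both control mice, as did 14.5% of all genes, and their log2 fold changes were closer to 0 than in the wild type mice that chose them. Cxxc5 stood at 32.7 and 41.4 CPM in control and at 24.5 and 17.3 CPM in HS mice (-0.82, SE 0.273). Mycn stood at 0.881 and 1.22 CPM in control and at 0.527 and 0.575 CPM in HS mice (-0.92, SE 0.526). Zfp503, which was already low in control R6/2 mice at 27 and 28.9 CPM, stood at 20.4 and 19 CPM after HS (-0.51, SE 0.403). These 3 genes kept 52.5% to 70.4% of their control mean.

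Samd5 was at 0.352 and 0.658 CPM in control and at 0.343 and 0.287 CPM in HS R6/2 mice (-0.66, SE 0.573). Fam167a was at 0.22 and 0.557 CPM in control and at 0.0916 and 0.172 CPM in HS mice (-1.54, SE 0.715), from 10 and 22 counts against 4 and 6. Both values rested largely on R6/2 control mouse 2, without which they were -0.152 for Samd5 and -0.748 for Fam167a. None of the 5 was called by edgeR's quasi-likelihood test, with adjusted p from 0.36 for Cxxc5 to 0.82 for Samd5, where 0.0436% of all genes were called. Cxxc5 and Fam167a had an unadjusted p under 0.05, as did 1117 of all genes, and DESeq2 called 0 members. The median log2 fold change of the members was -0.82, against 0.00111 over all genes.

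Averaged over R6/2 and Hsf1-/- mice, whose libraries did not choose the members, HS lowered Cxxc5 by a log2 fold change of -0.95 (SE 0.195, edgeR adjusted p = 0.024). The other members did not pass the test, at -1.15 for Zfp503 (adjusted p = 0.057), -1.33 for Samd5 (0.10), -0.90 for Mycn (0.33) and -0.77 for Fam167a (0.52), so 1 of 5 was called where 1.57% of all genes were. The call for Cxxc5 did not hold without R6/2 control mouse 2 or without any of the Hsf1-/- mice of the HS experiment, with adjusted p from 0.074 to 0.099.

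The HS effects of R6/2 and Hsf1-/- mice were then compared with each other. The difference, Hsf1-/- minus R6/2, was -1.29 for Zfp503 (unadjusted p = 0.038), -1.34 for Samd5, -0.26 for Cxxc5, 0.04 for Mycn and 1.54 for Fam167a, each with an adjusted p of 1 by edgeR's quasi-likelihood test. Among the members 0 were called by edgeR or by DESeq2 and 1 had an unadjusted p under 0.05, and among all genes edgeR called 0% and 500 had an unadjusted p under 0.05. Differences from the wild type effect share the libraries that chose the members and are given with no test: the fall in Hsf1-/- mice was 89.6% of that in wild type mice for Zfp503 on the log2 scale, 77.3% for Samd5, 55.1% for Cxxc5, 28.1% for Mycn and 0.142% for Fam167a. In R6/2 mice the same share was 25.2% for Zfp503, 25.5% for Samd5, 29.5% for Mycn, 41.8% for Cxxc5 and 45.4% for Fam167a. Choosing the members by their wild type fall favours a large fall there, which tends to lower all these shares.

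**Figure D2:**
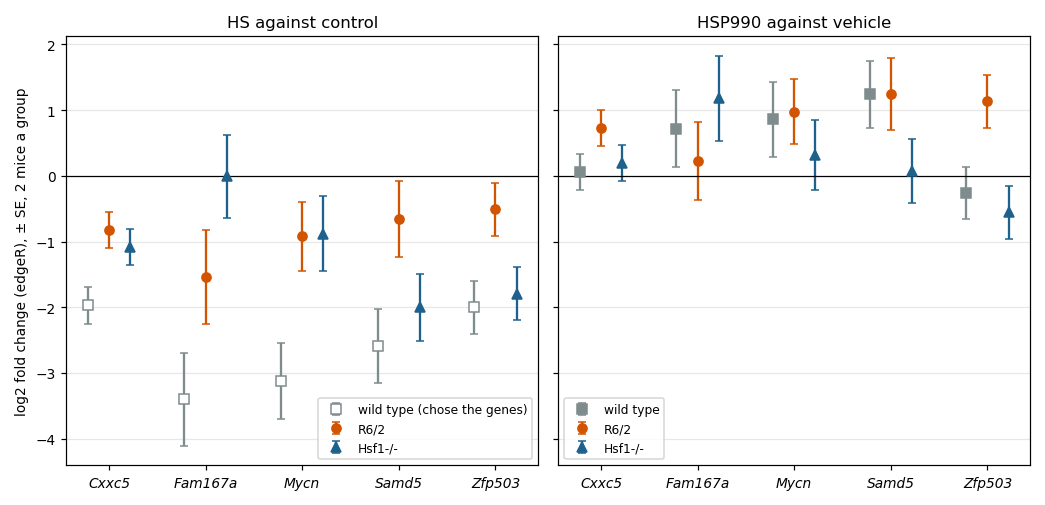
Log2 fold change of each member after HS and after HSP990 in each genotype, with bars of ± SE from edgeR. Each point compares 2 treated with 2 untreated mice. All HS points except Fam167a in Hsf1-/- mice (-0.0048) lie below -0.5. The 95% intervals after HSP990 are not drawn, and none lies wholly below 0.

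After HSP990, where Hspa1a was at its highest levels in wild type and R6/2 mice, no member was called lower. In wild type mice Samd5 stood at 1.74 and 0.659 CPM with vehicle and at 2.99 and 2.66 CPM with HSP990 (log2 fold change 1.24, SE 0.504, edgeR adjusted p = 0.29). Fam167a was at 1.37 and 0.737 CPM with vehicle and at 2.1 and 1.38 CPM with HSP990 (0.72, SE 0.581), and Mycn at 0.497 and 0.504 CPM and at 0.699 and 1.11 CPM (0.86, SE 0.57). Both HSP990 mice thus lay above both vehicle mice for these 3 genes, as they did for 24.3% of all genes.

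Zfp503 was at 79.1 and 90.8 CPM with vehicle and at 67.5 and 74.4 CPM with HSP990 in wild type mice (-0.26, SE 0.399), with HSP990 mice below vehicle mice. Cxxc5 was at 35.8 and 20.5 CPM with vehicle and at 29.7 and 29.1 CPM with HSP990 (0.06, SE 0.275), and its groups overlapped. No member was called by edgeR's quasi-likelihood test, with adjusted p of 0.29 to 0.95, where 1.85% of all genes were called, while 1 member and 1817 genes had an unadjusted p under 0.05 and DESeq2 called 0 members.

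In R6/2 mice all 5 log2 fold changes after HSP990 were above 0. Zfp503 stood at 20.5 and 11.2 CPM with vehicle and at 35.7 and 33.8 CPM with HSP990 (1.13, SE 0.403, edgeR adjusted p = 0.29). Cxxc5 stood at 32.3 and 17.6 CPM with vehicle and at 43.1 and 39.7 CPM with HSP990 (0.73, SE 0.272, adjusted p = 0.33), and Samd5 at 0.408 and 0.295 CPM and at 1.27 and 0.438 CPM (1.25, SE 0.542, adjusted p = 0.46). For these 3 genes both HSP990 mice were above both vehicle mice, as for 21.2% of all genes.

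Mycn, at 1.32 and 0.788 CPM with vehicle and 3 and 1.19 CPM with HSP990 in R6/2 mice (0.97, SE 0.496), and Fam167a, at 0.734 and 0.271 CPM and 0.362 and 0.813 CPM (0.22, SE 0.596), had overlapping groups. Without R6/2 HSP990 mouse 1 the log2 fold change was 0.306 for Samd5 and 0.165 for Mycn. By edgeR's quasi-likelihood test 0 members were called where 1.43% of all genes were, 3 members and 1306 genes had an unadjusted p under 0.05, and DESeq2 called 0 members.

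In Hsf1-/- mice, Fam167a was at 0.424 and 0.332 CPM with vehicle and at 0.652 and 1.09 CPM with HSP990 (1.18, SE 0.647, edgeR adjusted p = 0.61), and Cxxc5 at 29.8 and 24 CPM and at 30.4 and 31.2 CPM (0.20, SE 0.275). The HSP990 mice were above the vehicle mice for these 2 genes, as for 18.7% of all genes. The other members overlapped, with Zfp503 at 46.6 and 82.5 CPM with vehicle and at 23.1 and 65.2 CPM with HSP990 (-0.56, SE 0.401), Samd5 at 2.31 and 2.2 CPM and at 3.1 and 1.58 CPM (0.07, SE 0.49), and Mycn at 0.942 and 0.747 CPM and at 1.44 and 0.613 CPM (0.32, SE 0.537). By edgeR's quasi-likelihood test 0 members were called where 0.218% of all genes were, 0 members and 1304 genes had an unadjusted p under 0.05, and DESeq2 called 0 members.

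The HSP990 effect did not differ detectably between genotypes for any member. For Hsf1-/- minus wild type, edgeR's quasi-likelihood test called 0 members where 0.422% of all genes were called, and 0 members and 948 genes had an unadjusted p under 0.05. For R6/2 minus wild type it called 0 members and 0% of all genes, 981 genes had an unadjusted p under 0.05, and among the members 1 did, Zfp503 with a difference of 1.39 (SE 0.568, unadjusted p = 0.026, adjusted p = 0.63). DESeq2 called 0 members in both.

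Over R6/2 and Hsf1-/- mice together, the HS effect was below the HSP990 effect for all 5 members. The difference, HS minus HSP990, was -1.42 for Cxxc5 (SE 0.275, 95% interval -1.997 to -0.8353), which passed edgeR's quasi-likelihood test with an adjusted p of 0.0078. It was -1.99 for Samd5 (SE 0.53, adjusted p = 0.051), -1.44 for Zfp503 (SE 0.403, 0.067), -1.55 for Mycn (SE 0.535, 0.15) and -1.48 for Fam167a (SE 0.649, 0.28). All 5 had an unadjusted p under 0.05, as did 2109 of all genes, and 1 of 5 was called where 3.12% of all genes were. The members' median difference was -1.48, against -0.0189 over all genes, and DESeq2 called 3 members and 715 of all genes. In these mice the HS experiment also differed from the HSP990 experiment in the handling of its untreated mice, in Y-linked expression for R6/2 mice and in age for Hsf1-/- mice, which cannot be told apart from the treatments.

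Untreated levels spanned a wide range between members per kb of exon, and were compared between genotypes in the vehicle mice, which did not choose the members. In wild type control mice the level was 32.2 CPM per kb for Zfp503 and 22.3 for Cxxc5, but 0.956 for Samd5, 0.841 for Mycn and 0.441 for Fam167a. Zfp503 was lower in vehicle R6/2 mice, at 20.5 and 11.2 CPM, than in vehicle wild type mice, at 79.1 and 90.8 CPM (log2 fold change -2.42, SE 0.402, edgeR adjusted p = 0.00084), and the groups did not overlap. Samd5 was lower too, at 0.408 and 0.295 CPM against 1.74 and 0.659 CPM (-1.75, SE 0.547, adjusted p = 0.034). That call for Samd5 did not hold without wild type vehicle mouse 1, where its log2 fold change was -0.89 (adjusted p = 0.42), or without either R6/2 vehicle mouse (0.091 and 0.16).

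Of the members, 2 of 5 were called between vehicle R6/2 and wild type mice where 19.2% of all genes were, and Cxxc5 (-0.17, adjusted p = 0.71), Fam167a (-1.04, 0.24) and Mycn (1.08, 0.19) were not. The markers of muscle fibres moved in the same comparison, with 8 of 8 called lower in R6/2 mice and their summed level at 56500 to 64900 CPM against 265000 to 274000 CPM in wild type mice, and their part in the values of Zfp503 and Samd5 was not tested. Between vehicle Hsf1-/- and wild type mice, which also differed in age, edgeR's quasi-likelihood test called 0 members, where 0.0872% of all genes were called and 1258 had an unadjusted p under 0.05. Fam167a had the lowest p there, at 0.424 and 0.332 CPM against 1.37 and 0.737 CPM (-1.47, SE 0.648, unadjusted p = 0.036, adjusted p = 0.51), and DESeq2 called 0 members.

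In the order of the 12 groups, wild type control mice had the highest mean of Cxxc5, Fam167a, Mycn and Zfp503, which the choice of members favours, and wild type HS mice had the lowest of Cxxc5 and Mycn. The Cxxc5 means ran from 50.63 CPM ± 1.97 (SD, n = 2) in wild type control mice through 41.44 CPM in R6/2 HSP990 mice to 20.9 CPM ± 5.06 in R6/2 HS, 13.1 CPM ± 1.89 in Hsf1-/- HS and 12.93 CPM ± 3.36 in wild type HS mice, and the 3 HS groups were the 3 lowest. Those at ranks 5 to 10 overlapped from each to the next, and so did ranks 2 and 3 and the 2 lowest. For Zfp503 the order ran from 135.8 CPM ± 0.512 in wild type control mice through 88.54 CPM ± 43 in Hsf1-/- control and 84.95 CPM ± 8.22 in wild type vehicle mice, which overlapped, to 19.68 CPM ± 0.98 in R6/2 HS and 15.83 CPM ± 6.58 in R6/2 vehicle mice, which overlapped too.

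Mycn differed most between the untreated wild type mice of the 2 experiments, with a mean of 2.769 CPM ± 1.31 in wild type control mice and 0.5003 CPM ± 0.00521 in wild type vehicle mice, the latter close to the 0.3134 CPM ± 0.0314 of wild type HS mice. Neighbours in its order overlapped except from Hsf1-/- vehicle mice, at 0.8444 CPM, to R6/2 HS mice, at 0.5506 CPM, and from those to wild type vehicle mice. Samd5 was highest in Hsf1-/- control mice, at 3.484 CPM ± 1.15, and lowest in R6/2 HS mice, at 0.3154 CPM ± 0.0397. All 4 R6/2 groups were among its 5 lowest, and the groups from rank 6 to rank 12 overlapped from each to the next. Fam167a was highest in the wild type control, HSP990 and vehicle groups, at 1.885, 1.74 and 1.051 CPM, and lowest in wild type HS, at 0.1721 CPM ± 0.126, and R6/2 HS, at 0.132 CPM ± 0.0571, with overlap along the whole run from wild type vehicle mice at rank 3 to Hsf1-/- vehicle mice at rank 10.

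A further 59 genes were called lower after HS in wild type mice, and the members are set beside them as a description. Their median log2 fold change was -1.04 in wild type mice, -0.356 in R6/2 and -0.506 in Hsf1-/- mice, against -2.59, -0.823 and -1.09 for the members. Of the 59, 54 had a value below 0 after HS in R6/2 mice and 59 did in Hsf1-/- mice, against 49.7% and 49.3% of all genes. EdgeR called none of the 59 lower in either genotype, but it called 0 genes lower there at all. After HSP990 the median of the 59 was 0.167 in wild type, 0.219 in R6/2 and 0.147 in Hsf1-/- mice. Of them, 19, 8 and 22 were below 0, against 50.1%, 48.3% and 48.3% of all genes. For the members the HSP990 medians were 0.72, 0.974 and 0.195.

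**Figure D3:**
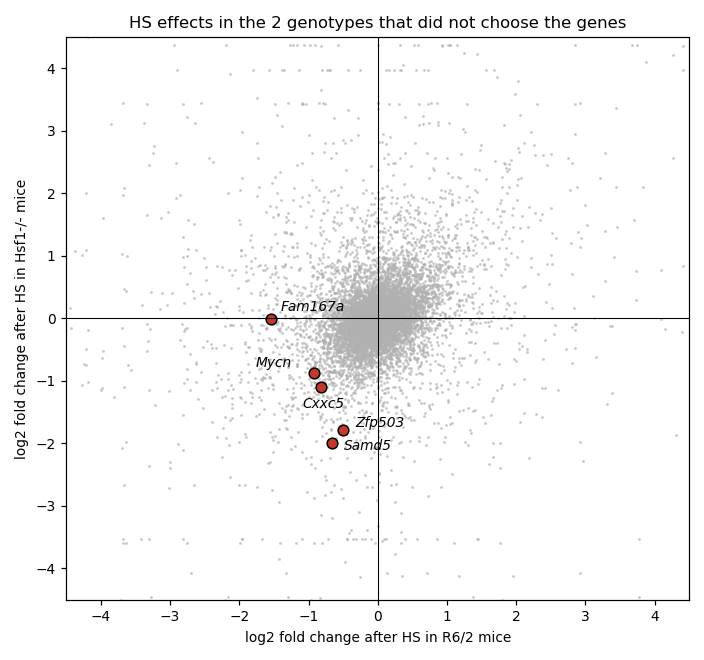
Log2 fold change after HS in R6/2 mice (x axis) against that in Hsf1-/- mice (y axis) for the 13754 genes tested, with the 5 members marked. Each axis is cut at 4.5 either way, which leaves out 179 genes, and 4 members lie in the lower left while Fam167a lies at -1.54 and -0.0048.

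The members were compared over the 20 libraries that did not choose them, as log2(CPM + 0.5) centred within each genotype and experiment, which leaves treatment and mouse. Pearson's r over the 10 pairs of members ran from 0.0517 for Fam167a and Zfp503 to 0.739 for Mycn and Samd5, with a median of 0.422. Cxxc5 had an r of 0.715 with Samd5 and 0.678 with Mycn, so Cxxc5, Mycn and Samd5 were the members most alike. Over all 24 libraries, the 4 that chose the members included, the genes most like Cxxc5 were Afdn (0.905), Rasgrf2 (0.901) and Sertad4 (0.891), of 11118 genes with a mean of at least 1 CPM. Those most like Zfp503 were Ogt (0.897), Afdn (0.848) and Trpm4 (0.843), and those most like Mycn were Dyrk2 (0.87), Sh3rf1 (0.848) and Cxxc5 (0.828). For Samd5 they were Chst7 (0.878), Arhgap18 (0.875) and Ric1 (0.861), and for Fam167a, the member with the fewest counts, Asb1 (0.825), Klhl4 (0.807) and Zfyve16 (0.786). Genes that were also lower in the wild type HS mice are favoured by these ranks, since r between members was higher over 24 than over 20 libraries, at 0.828 and 0.678 for Cxxc5 and Mycn and at 0.503 and 0.0517 for Fam167a and Zfp503. Values of 1 library also share its depth and scaling, so these are descriptions.

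Paralogs of the members are set beside them. Myc, the widely expressed relative of Mycn, had a mean of 15.3 CPM and a log2 fold change after HS of 1.29 in wild type mice, where it was not among the lowered genes, and of 0.17 in R6/2 (edgeR adjusted p = 0.94) and -0.02 in Hsf1-/- mice (adjusted p = 1). After HSP990 in Hsf1-/- mice Myc was at 1.48 (unadjusted p = 0.0014, adjusted p = 0.18 by edgeR and 0.015 by DESeq2). Sash1, which shares the SAM domain with Samd5 and lies next to it, had log2 fold changes after HS of 0.99 in wild type, 0.72 in R6/2 (adjusted p = 0.26) and 0.41 in Hsf1-/- mice (adjusted p = 0.64). Cxxc4, Fam167b and Mycl had means of only 0.139, 0.296 and 0.86 CPM. EdgeR called none of the 5 paralogs tested after HS in R6/2 or Hsf1-/- mice or after HSP990. Few genes of any kind were called after HS in those 2 genotypes, 0.0436% in R6/2 and 0.00727% in Hsf1-/- mice.

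The nearest tested gene on each side of each member was also read. These 10 genes, 1700066B19Rik and Psd2 beside Cxxc5, Neil2 and Mtmr9 beside Fam167a, Cyria and Ddx1 beside Mycn, Sash1 and Stxbp5 beside Samd5, and Comtd1 and Kcnma1 beside Zfp503, had log2 fold changes of -0.73 to 0.99 after HS in wild type mice, none as low as any member's. By edgeR's quasi-likelihood test 0 of the 10 were called after HS in R6/2 mice (lowest adjusted p 0.26) or in Hsf1-/- mice (lowest adjusted p 0.64). Only 0.0436% and 0.00727% of all genes were called there, so these counts do not set the neighbours apart from the members. In vehicle R6/2 against wild type mice 1 of the 10 was called, Sash1 at 0.69 (adjusted p = 0.033), in the direction opposite to Samd5, a call that was lost without R6/2 vehicle mouse 2 or either wild type vehicle mouse.

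The pathways around the members were read from lists of 13 genes of the MYC, MAX and MLX network, 24 MYC-linked genes of ribosome production, 12 CXXC zinc finger genes, 19 Wnt feedback and target genes, 19 BMP and ID genes and 13 SAM domain genes, of which 13, 22, 10, 18, 18 and 11 were tested. By edgeR's quasi-likelihood test none of these was called after HS in R6/2 or Hsf1-/- mice, where 0.0436% and 0.00727% of all genes were called. The MYC, MAX and MLX genes had medians of -0.0126, -0.0548 and -0.0461 after HS in wild type, R6/2 and Hsf1-/- mice. Mycn was chosen through its call in wild type mice, and no other gene of that list was called there, where 283 of 13754 genes were. The ribosome production genes, many of which MYC proteins drive, had medians of 0.0309, 0.0386 and 0.0349, with 0 of 22 called after HS or HSP990 in any genotype.

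The Wnt feedback and target genes, among them Axin2 and Nkd1, had 0 of 18 called after HS or HSP990 in any genotype, and their median after HS was -0.639 in wild type, 0.109 in R6/2 and -0.0561 in Hsf1-/- mice. Of the 18 BMP and ID genes tested, 10 were below 0 after HS over R6/2 and Hsf1-/- mice (median -0.0202) and 14 in HS minus HSP990 (median -0.339), and 1 was called in each, where 1.57% and 3.12% of all genes were. That gene, Bmp4, a secreted BMP ligand, rose after HS over R6/2 and Hsf1-/- mice (log2 fold change 0.79, SE 0.157, edgeR adjusted p = 0.023), and HS minus HSP990 was 1.11 for it (adjusted p = 0.0094). After HSP990 in wild type mice Bmp2, another BMP ligand, rose by 1.55 (SE 0.332, adjusted p = 0.025) and Smad1, which carries BMP signals to the nucleus, by 0.95 (SE 0.233, adjusted p = 0.049). The Bmp4 call over both genotypes was lost without either control mouse or HS mouse 1 of either genotype, and the call for HS minus HSP990 was not. The Bmp2 call was lost without wild type vehicle mouse 2 or either HSP990 mouse, and the Smad1 call without any of the 4 mice. Of the 10 CXXC genes tested, 1 was called in HS over both genotypes and in HS minus HSP990, Cxxc5. Fbxl19, a CXXC and F-box protein, had log2 fold changes of -1.14 after HS in wild type mice, -0.08 in R6/2 (edgeR adjusted p = 0.96), -0.88 in Hsf1-/- mice (adjusted p = 0.2) and -0.82 in HS minus HSP990 (adjusted p = 0.083). Mbd1, also on the CXXC list, went the other way, at 0.79 in wild type and 0.24 in R6/2 mice (adjusted p = 0.72). It was at 0.52 in Hsf1-/- mice (adjusted p = 0.2) and 0.56 in HS minus HSP990 (adjusted p = 0.053). The list was split, with 5 of 10 below 0 for HS in wild type, 5 in R6/2 and 6 in Hsf1-/- mice. In HS minus HSP990 5 of 10 were. No SAM domain gene was called in HS over both genotypes or in HS minus HSP990.

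Between vehicle R6/2 and wild type mice, where 19.2% of all genes were called, the lists moved in both directions. Of the MYC, MAX and MLX genes 3 were higher and 1 lower, namely Mlxipl, a carbohydrate-responsive factor, at 84.24 against 169.3 CPM (-1.01, adjusted p = 9.4e-05). Of the genes on the ribosome production list 6 were lower and 0 higher. Odc1, on that list but encoding the first enzyme of polyamine synthesis, was among the lower (-1.63, edgeR adjusted p = 0.009), a call that was lost without either R6/2 vehicle mouse. Of the BMP genes 2 were higher and 3 lower, and the BMP antagonist Nog (-1.81, adjusted p = 0.00013) was among the lower. Of the Wnt genes 3 were higher and 1 lower, with a median of 0.0406 over the 18 tested, and the lower was the secreted protein Dkk3, at 2.984 against 78.62 CPM (-4.71, adjusted p = 0.00012).

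Markers of muscle fibres, endothelium, fibroblasts, satellite cells, smooth muscle, leukocytes, adipocytes and Schwann cells were counted in every library, 50 genes in all. None of the 50 was called by edgeR after HS in wild type, R6/2 or Hsf1-/- mice, where few genes of any kind were called in the latter 2 genotypes. Adipocyte markers had values in the direction of the members, with 6 of 6 below 0 after HS in wild type mice (median log2 fold change -0.898), 5 of 6 in R6/2 (-0.353), 5 of 6 in Hsf1-/- mice (-0.378) and 6 of 6 in HS minus HSP990 (-0.797). Their summed level was 544 to 1380 CPM in control and 475 to 767 CPM in HS wild type mice, 338 to 344 and 298 to 360 CPM in R6/2 mice, and 700 to 830 and 564 to 646 CPM in Hsf1-/- mice. Of the 3 Schwann cell markers tested, 1 was below 0 after HS in wild type mice (median 0.167) and 3 in R6/2 mice (-0.332). In Hsf1-/- mice 2 were below 0 (-0.393), and in HS minus HSP990 3 were (-0.423). The part of adipocytes or Schwann cells in the values of the members was not tested. The fibre markers summed to 262000 to 269000 CPM in control and 271000 to 283000 CPM in HS Hsf1-/- mice, where Samd5, Zfp503 and Cxxc5 had their low values, and to 57200 to 88000 CPM in control and 88300 to 101000 CPM in HS R6/2 mice. In HS over both genotypes 1 of the 50 markers was called, an endothelial gene that was higher, and in HS minus HSP990 3 were higher and 1 lower, and their part in the values of Cxxc5 was not tested.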

How the data were processed

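Poly(A) RNA from quadriceps femoris of 24 mice was sequenced as strand-specific paired ends, and the authors aligned the reads to mm9 with Bowtie, counted them per gene and deposited raw counts by gene ID with no scaling. The counting program and annotation are not given in the sources used here. Symbols were matched for 18594 of 18669 gene IDs, and no deposited sample column was left unused (0). The filter of the study, a minimum of 2 counts in no fewer than 10 libraries, kept 13754 genes.

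All 24 libraries were fitted together as 12 groups with edgeR 4.0.16 (R 4.3.3, limma 3.58.1), using TMM scaling and the quasi-likelihood test, with Benjamini-Hochberg adjustment over all genes tested and a threshold of 0.05. Levels are CPM computed here from the counts and TMM factors. Fold changes of genes with few counts depend on the prior count of the fit. The authors fitted these counts with DESeq2, and DESeq2 1.42.0 was run as an alternative, as were size factors in place of TMM, library size alone, no filter, edgeR's own filter, a fit of the groups compared, the replicate number as a block and leaving out each mouse. The scripts were tested on simulated data. The labels call the mice separate animals, and counts of the 2 mice of a group differed by more than sampling noise.

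The members, the gene lists and the tests were chosen with earlier results of these data known. Beside the members, the genes named are the HS genes, the next gene in the order of falls, paralogs, the nearest tested gene on each side, the 3 genes most correlated with each member, and up to 4 called genes of each list with the largest changes. Gene structures come from GENCODE vM1 on mm9 and promoters from RefSeq on GRCm38.p6. Copies of the transcripts were sought with minimap2 2.31-r1302, and figures were drawn with Python 3.11.15 and matplotlib 3.10.9.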

Additional observations from a re-analysis of the deposited data

How the results depend on the processing

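The number of members called was the same in every setting tried for HS in R6/2 mice, for HSP990 in each genotype, for the differences between genotypes and for vehicle Hsf1-/- against wild type mice, at 0 each time. For HS in Hsf1-/- mice it was 0 in the fit reported, 1 with only the groups compared (Cxxc5) and 3 with DESeq2, and 0 without any mouse. For HS over R6/2 and Hsf1-/- mice it was 1 in the fit reported, 2 with library size alone, 2 with no filter, 2 with only the groups compared, 3 with DESeq2 and 0 to 1 when a mouse was left out, and Cxxc5 was called in all 7 settings that kept every mouse. For HS minus HSP990 it was 1, then 3 with library size alone, 3 with no filter, 2 with filterByExpr, 3 with DESeq2 and 1 to 2 when a mouse was left out, and Cxxc5 was called in all 7 settings and without any of the 16 mice. For vehicle R6/2 against wild type mice it was 2, then 1 with only the groups compared, where Samd5 was lost, and 1 to 2 when a mouse was left out, while Zfp503 was called throughout. The causes were not tested.

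Signs turned only for effects that edgeR did not call, the largest in absolute size being -0.556 for Zfp503 after HSP990 in Hsf1-/- mice. With library size alone, Cxxc5 in vehicle R6/2 against wild type mice was at 0.51 in place of -0.17, where that scaling put the all-gene median log2 fold change at 0.736 in place of 0.0662 and Mycn (1.75) was called in place of Samd5 (-1.07). For the HSP990 effect in R6/2 minus wild type mice, Samd5 was at -0.0027 with size factors, -0.13 with library size alone and -0.0519 with the replicate block in place of 0.0062, and Mycn at -0.0282 with library size alone in place of 0.11. When a mouse was left out, the HS effect ran from -0.171 to 0.173 for Fam167a in Hsf1-/- mice, and for Myc from -0.377 to 0.651 in R6/2 and from -0.719 to 0.47 in Hsf1-/- mice. The difference of HS effects between those genotypes ran from -0.489 to 0.00912 for Cxxc5 and from -0.516 to 0.445 for Mycn. The HSP990 effect ran from -0.284 to 0.517 for Cxxc5 in wild type mice, from -0.482 to 1.12 for Fam167a in R6/2 mice and, in Hsf1-/- mice, from -0.448 to 0.77 for Mycn, from -0.506 to 0.462 for Samd5 and from -1.49 to 0.022 for Zfp503. Its difference from wild type ran, in Hsf1-/- mice, from -0.321 to 0.48 for Cxxc5, from -0.0461 to 0.841 for Fam167a and from -1.23 to 0.285 for Zfp503, and, in R6/2 mice, from -1.2 to 0.398 for Fam167a, from -0.696 to 0.635 for Mycn and from -0.933 to 0.59 for Samd5. Cxxc5 ran from -0.412 to 0.389 in vehicle Hsf1-/- and from -0.676 to 0.282 in vehicle R6/2 mice, each against wild type.

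Over all genes, DESeq2 called more than edgeR: 127 against 6 after HS in R6/2 mice, 161 against 1 after HS in Hsf1-/- mice, 460 against 216 over both, 142 against 30 after HSP990 in Hsf1-/- mice and 715 against 429 for HS minus HSP990. With only the groups compared, 98 genes were called after HS in Hsf1-/- mice and 8 against 197 after HSP990 in R6/2 mice, and with library size alone 7652 against 2638 differed between vehicle R6/2 and wild type mice. Replicate numbers did not pair the mice, with correlations of their deviations from -0.242 to 0.274, and with the replicate block the members called stayed at 0, 1, 1 and 2 for HS in Hsf1-/- mice, HS over both, HS minus HSP990 and vehicle R6/2 mice, and 155 genes were called for HS over both. A term for Y-linked transcripts was not run because no group held mice that differ in them. Depth limits Fam167a, Mycn and Samd5 most, with medians of 16, 20 and 31 counts per library.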
